A study of Rattus norvegicus with 18 samples.

Results

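The genes described here are markers of the cells that build brain capillaries and small arteries. They are 35 gene symbols, 25 of endothelial cells and 10 of mural cells, the pericytes and smooth muscle cells that wrap the endothelium. They were listed with earlier results of the same arrays in view, because several endothelial genes had been seen almost without signal in single arrays of Oil-treated rats. The low single arrays and the EB vs Oil differences below are therefore a description. Counts of genes called in EB vs Oil stand beside the share of all probe sets called, and nothing is read from them. The comparisons between brain regions are tested, but the ARC and PVN means hold the low Oil arrays for which the genes were listed. They are thus not independent of that choice, and results without the low arrays are given beside them. Leaving those arrays out rests on the same values, so it does not remove the dependence. Of the 35 genes, 32 have a probe set with their symbol on the array, 1 each, among the 23188 probe sets for genes. Robo4, Egfl7 and Slco1a4 have none under their symbol and are named only.

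RNA came from bilateral punches taken from 3 regions of ovariectomized rats. ARC stands for the arcuate nucleus at the base of the hypothalamus, PVN for its paraventricular nucleus, and NTS for the solitary tract nucleus in the hindbrain. The animals were female Sprague-Dawley rats, without ovaries in both treatment groups. The methods give their age as 90 days at ovariectomy, with a week of recovery before treatment. EB-treated rats received 10 µg of EB, named estradiol benzoate in the study's methods, in 0.1 mL of oil under the skin on days 1 and 2, Oil-treated rats the oil alone, and tissue was taken on day 4. Each region has 3 EB-treated and 3 Oil-treated samples, 1 Rat Clariom S Pico array each, 18 in all, called here by region, treatment and label number, such as ARC Oil 2. The methods give 3 rats per treatment for all regions, but the labels do not say which arrays share a rat.

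Endothelial cells of the brain are sealed to one another by tight junctions and carry glucose, amino acids and lipids across the blood-brain barrier through dedicated transporters, while efflux pumps return many drugs and metabolites to the blood. Their growth and survival depend on vascular endothelial growth factor (VEGF) and angiopoietin receptors. Pericytes are recruited through platelet-derived growth factor signaling and help to keep the barrier closed, and smooth muscle cells set the width of arterioles.

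Values are the deposited signal intensities (Log 2). Array medians lay between 7.74 and 8.0. Background was taken per array as the median of 23 control probe sets, and it ran from 6.74 in ARC Oil 1 to 7.60 in ARC EB 1. Of the 32 genes, 14 lay above that background in all 18 arrays, and Sox18 and Anpep lay below it in all 18. Markers of neighbouring nuclei went against the label in PVN Oil 1, PVN Oil 3, ARC Oil 1 and NTS Oil 3, so the gaps of single Oil arrays are given against the EB arrays as well as against the other Oil arrays. The ARC EB arrays are no clean reference either. Of 13 midbrain dopamine and mammillary genes, 10 had a higher and 3 a lower mean with EB in the ARC. Their median difference was 1.00, against 0.01 over all probe sets, and its part in the vascular values was not tested. Arrays of 1 group differed from each other with an SD over all probe sets of 0.256 (NTS Oil 1 and Oil 2) to 0.597 (NTS EB 2 and EB 3), and PVN Oil 1 and Oil 3 were the second closest pair at 0.277.

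The 4 genes with the largest joint shortfall in ARC Oil 2 and PVN Oil 2 are shown first with the 250 bases before a transcription start, from RefSeq on GRCr8, 5′ to 3′ on the gene's own strand, because they lie on different chromosomes and vary together. Capitals mark the core letters of sites for ETS factors, the family of the endothelial factor Erg: GGAA, or TTCC where the core lies on the other strand. Cldn5 lies on the minus strand of chromosome 11 (chr11:95718599-95718848), Abcb1a on the minus strand of chromosome 4 (chr4:26397649-26397898), Rgs5 on the plus strand of chromosome 13 (chr13:84380827-84381076) and Adgrf5 on the minus strand of chromosome 9 (chr9:25121238-25121487). The starts of Abcb1a and Adgrf5 lie inside the annotated gene.
Cldn5: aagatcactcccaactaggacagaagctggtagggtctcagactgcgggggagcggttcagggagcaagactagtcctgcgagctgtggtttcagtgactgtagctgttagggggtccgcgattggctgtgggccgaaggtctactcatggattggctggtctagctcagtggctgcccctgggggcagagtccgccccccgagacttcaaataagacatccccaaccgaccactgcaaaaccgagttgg
Abcb1a: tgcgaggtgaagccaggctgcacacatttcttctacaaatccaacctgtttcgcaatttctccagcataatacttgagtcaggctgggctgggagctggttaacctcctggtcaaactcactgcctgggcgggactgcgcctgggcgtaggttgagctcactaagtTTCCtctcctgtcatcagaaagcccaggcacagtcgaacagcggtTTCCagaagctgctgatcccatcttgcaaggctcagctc
Rgs5: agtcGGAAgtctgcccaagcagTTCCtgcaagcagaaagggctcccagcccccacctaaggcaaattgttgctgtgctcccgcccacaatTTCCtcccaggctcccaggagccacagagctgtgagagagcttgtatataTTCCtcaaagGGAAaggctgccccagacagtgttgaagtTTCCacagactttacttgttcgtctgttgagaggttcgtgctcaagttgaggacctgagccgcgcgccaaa
Adgrf5: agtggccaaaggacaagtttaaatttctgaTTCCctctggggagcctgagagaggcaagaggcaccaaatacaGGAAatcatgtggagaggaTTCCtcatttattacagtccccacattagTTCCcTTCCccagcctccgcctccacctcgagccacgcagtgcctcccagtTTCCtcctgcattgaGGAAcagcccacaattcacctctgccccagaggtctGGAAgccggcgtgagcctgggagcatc

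The 4 windows differed in these letters. Cldn5 held 0 cores, Abcb1a 2, Rgs5 6 and Adgrf5 8. RefSeq's table held a promoter for 22 of the 35 genes, and 18 of the 22 (81.8%) held at least 1 core in these 250 bases, against 93.2% of all 27457 promoters. In the longer window of 300 bases that runs 50 past the start, the full ETS site CCGGAA, which holds the core, stood in 1 of 22 (Kdr) against 15.8% of all promoters. The SOX site ACAAT stood in 7 of 22 (Adgrf5, Atp13a5, Emcn, Erg, Rgs5, Robo4 and Slco1a4) against 33.1%, and the E-box CACGTG in 2 (Slc7a5 and Slco1a4) against 6.65%. The CArG box of smooth muscle genes in its strict form, CC, 6 letters A or T, then GG, was in 0 of 22 against 1.64%. Only 1 of the 22 promoters, that of Acta2, belongs to a smooth muscle gene of the list. Its window holds CCCTATATGG and CCTTGTTTGG, which differ from the strict form by 1 letter each and were not counted. The full estrogen response element was in 0 of 22 against 0.0255%. Both strands were searched throughout.

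Most of the 32 genes read lowest in the same array of their region, ARC Oil 2 in the ARC and PVN Oil 2 in the PVN. In ARC Oil 2, 25 of 32 genes had the lowest of the 6 ARC values, where 15.5% of all probe sets did, and 17 lay at least 1 log2 unit under the median of the other 5 ARC arrays (0.94% of all probe sets). In PVN Oil 2, 29 of 32 were lowest, where 17.3% of all probe sets were, and 23 lay at least 1 unit lower (0.95% of all). NTS Oil 2, which bears the same number, held the lowest NTS value for 7 of 32 genes, where 12.4% of all probe sets did, and 0 lay 1 unit lower. Across the 18 arrays the minimum fell in PVN Oil 2 for 21 genes and in ARC Oil 2 for 6. In punches of whole tissue, fewer vascular cells and less RNA per cell cannot be told apart.

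**Figure D1:**
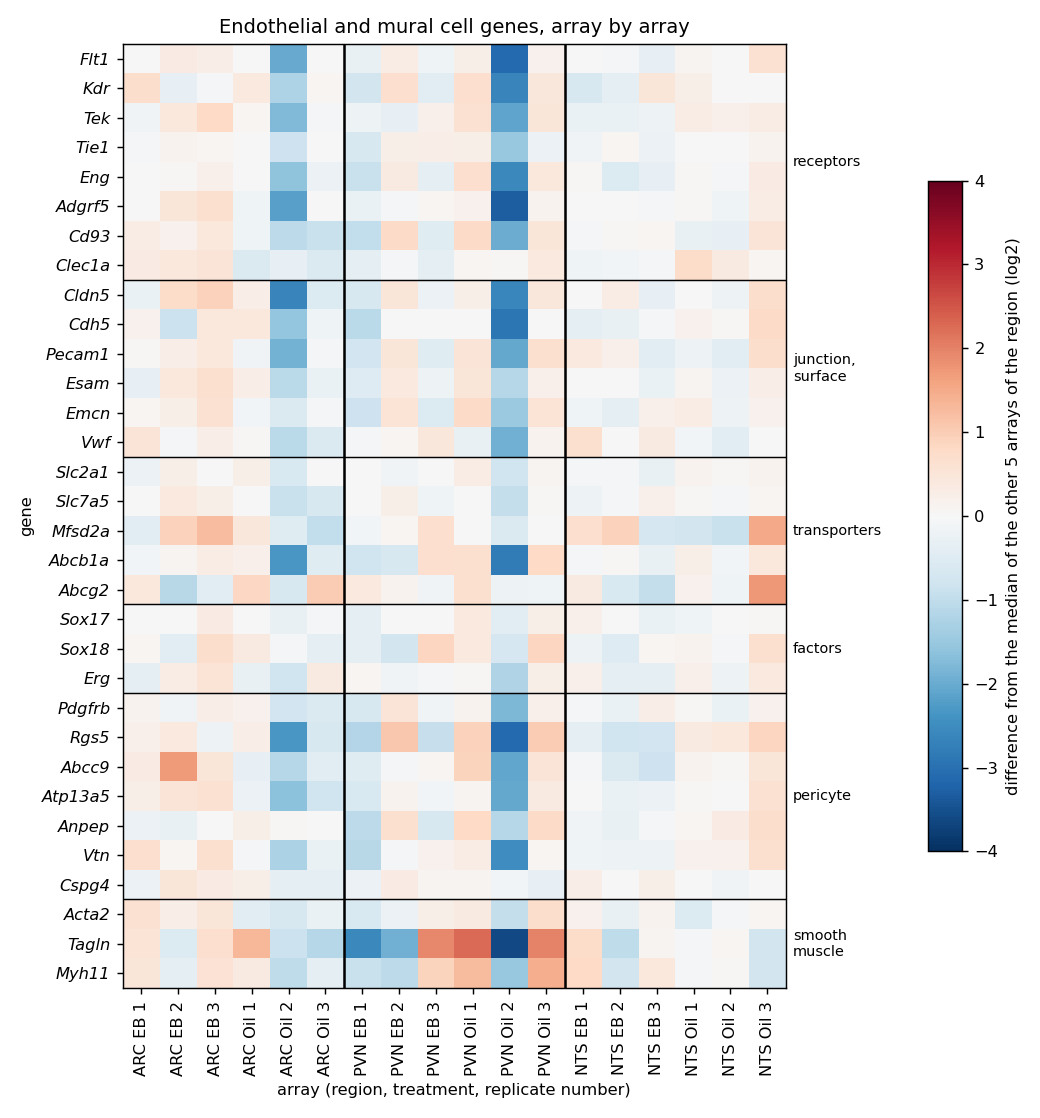
Each row is 1 of the 32 measured genes, grouped by role, and each column 1 array; color gives the log2 difference of the signal from the median of the other 5 arrays of the same region, blue lower and red higher. ARC Oil 2 and PVN Oil 2 are blue for most rows, with differences down to -2.65 for Cldn5 in ARC Oil 2 and -3.59 for Tagln in PVN Oil 2, whereas NTS Oil 2 is near white.

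Among the receptors, 6 of 8 in ARC Oil 2 and 7 of 8 in PVN Oil 2 lay at least 1 unit under the other arrays of the region. Flt1, a VEGF receptor, read 10.88, 11.19 and 11.15 in ARC EB 1 to 3 and 10.86, 8.87 and 10.88 in ARC Oil 1 to 3. In the PVN it read 11.06, 11.45 and 11.17 with EB and 11.40, 8.23 and 11.35 with Oil. Thus 1 Oil array stood apart in each region while EB and the other Oil arrays overlapped. Set against Oil 1 and Oil 3, Flt1 was 4.00-fold lower in ARC Oil 2 and 8.84-fold lower in PVN Oil 2, and set against the mean of the 3 EB arrays 4.60-fold and 7.98-fold lower. In the NTS, Flt1 kept to 10.98 to 11.89. Adgrf5, an adhesion receptor of lung and brain endothelium, read 9.83, 10.27 and 10.44 in ARC EB 1 to 3 and 9.66, 7.64 and 9.80 in ARC Oil 1 to 3. It read 10.00, 10.18 and 10.26 in PVN EB 1 to 3 and 10.34, 6.98 and 10.31 in PVN Oil 1 to 3, and 10.26 to 10.74 in the NTS. Its PVN Oil 2 value lay below the background of that array, 7.37, so PVN Oil 1 and Oil 3 exceeded it by at least 7.78-fold and the PVN EB arrays by at least 6.87-fold.

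Tek and Tie1, the angiopoietin receptor and its partner, read 7.61 and 6.63 in ARC Oil 2 and 7.67 and 6.42 in PVN Oil 2. In the other 16 arrays Tek kept to 9.24 to 10.40 and Tie1 to 7.29 to 8.35. Eng, a co-receptor for the transforming growth factor family, read 8.92 in ARC Oil 2 and 8.30 in PVN Oil 2 against 10.00 to 11.39 elsewhere. For these 3 receptors the 16 other arrays did not reach down to either low array. Kdr, the main VEGF receptor of growing vessels, read 6.37 and 5.13 in the 2 low arrays, both below background, and it was above background in 11 of 18 arrays. Cd93, a lectin-like surface receptor, read 7.40 in ARC Oil 2 and 6.50 in PVN Oil 2, but PVN EB 1 (7.47) and ARC Oil 3 (7.57) were low as well. Clec1a, a C-type lectin receptor, was above background in 1 array only and did not take part, with 6.90 in ARC Oil 2 and 7.26 in PVN Oil 2.

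All 6 junction and surface genes were lowest in ARC Oil 2 within the ARC and in PVN Oil 2 within the PVN. Cldn5, the claudin that seals endothelial tight junctions, read 11.53, 12.28 and 12.46 in ARC EB 1 to 3 and 11.78, 9.13 and 11.23 in ARC Oil 1 to 3. In the PVN it read 11.25, 12.14 and 11.66 with EB and 11.90, 9.30 and 12.10 with Oil. In the NTS it read 12.17, 12.46 and 11.86 with EB and 12.20, 11.99 and 12.87 with Oil. The gap to the other Oil arrays was 5.19-fold in the ARC and 6.48-fold in the PVN, and 1.46-fold for Oil 2 in the NTS. The gap to the EB arrays was 7.79-fold in the ARC and 5.20-fold in the PVN. Cdh5, the cadherin of endothelial adherens junctions, read 10.51, 9.64 and 10.76 in ARC EB 1 to 3 and 10.74, 8.97 and 10.33 in ARC Oil 1 to 3. It read 8.68, 9.74 and 9.75 in PVN EB 1 to 3 and 9.77, 6.85 and 9.75 in PVN Oil 1 to 3. In the NTS, Cdh5 lay between 9.34 and 10.42. PVN Oil 2 was below background, at least 5.26-fold under the other PVN Oil arrays and at least 4.05-fold under the PVN EB arrays, and PVN EB 1 was the next lowest of all 18 arrays.

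Pecam1, an adhesion molecule of endothelium and platelets, read 6.27 in ARC Oil 2 and 6.4 in PVN Oil 2 against 7.68 to 9.03 in the other 16 arrays. Esam, another adhesion molecule, read 7.60 and 7.61 against 8.24 to 9.06, and Emcn, a sialomucin of capillaries and veins, 7.30 and 6.72 against 7.37 to 8.53. Vwf, which binds platelets, was above background in 2 arrays only and read 5.93 and 5.04 in the 2 low arrays. The 2 low arrays were thus the lowest of the 18 for each of these 4 genes, although Emcn came close to them in PVN EB 1 at 7.37.

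The transporters split. Abcb1a, the efflux pump P-glycoprotein, read 9.12, 9.22 and 9.43 in ARC EB 1 to 3 and 9.33, 6.90 and 8.73 in ARC Oil 1 to 3. In the PVN it read 8.92, 9.06 and 9.74 with EB and 9.71, 6.91 and 9.85 with Oil, and in the NTS 9.51 to 10.19. Both low values were below background, which makes Oil 1 and Oil 3 at least 2.73-fold higher in the ARC and at least 5.33-fold in the PVN, and the EB arrays at least 3.21-fold and 3.66-fold. The glucose carrier Slc2a1 fell short by far less, 13.36 in ARC Oil 2 and 13.07 in PVN Oil 2 against 13.72 to 14.30 elsewhere. The amino acid carrier Slc7a5 read 10.70 and 10.75 in the 2 low arrays, beside 10.91 in NTS EB 1 and 10.97 in ARC Oil 3. Mfsd2a, which carries lysolipids with docosahexaenoic acid and restrains transcytosis, read 9.16 and 9.10 in the 2 low arrays, but its minimum was 8.64 in ARC Oil 3. Abcg2, another efflux pump, read 7.98 and 8.19, and its minimum was 7.51 in ARC EB 2. Abcg2 and Mfsd2a instead had their maxima in NTS Oil 3, 10.57 and 11.82, the array that also held the maximum of 13 of the 32 genes.

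The endothelial transcription factors had dim probe sets. Erg was above background in 1 array, and read 6.17 in ARC Oil 2 and 5.79 in PVN Oil 2 against 6.61 to 7.52 elsewhere. Sox17 and Sox18 were 2 of the 3 genes that varied least, by 0.81 and 1.21 over 18 arrays. Sox17 read 7.27, 7.26 and 7.56 in ARC EB 1 to 3, 7.25, 6.95 and 7.18 in ARC Oil 1 to 3, 6.88, 7.23 and 7.25 in PVN EB 1 to 3, and 7.63, 6.81 and 7.46 in PVN Oil 1 to 3. Its NTS values were 6.94 to 7.35. Sox17 thus followed the pattern in rank but by less than 0.5 of a unit. Sox18 read 4.47, 4.01 and 5.10 in ARC EB 1 to 3, 4.77, 4.4 and 4.08 in ARC Oil 1 to 3, 4.32, 3.98 and 5.18 in PVN EB 1 to 3, and 4.70, 4.02 and 5.16 in PVN Oil 1 to 3. Its NTS values were 3.97 to 5.04, and it was below background throughout.

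Among the pericyte genes, 5 of 7 in ARC Oil 2 and 6 of 7 in PVN Oil 2 had the lowest value of their region. Rgs5, a regulator of G protein signaling used as a pericyte marker, read 11.83, 12.02 and 11.62 in ARC EB 1 to 3 and 11.87, 9.50 and 11.18 in ARC Oil 1 to 3. In the PVN it read 10.97, 12.30 and 11.21 with EB and 12.15, 9.04 and 12.21 with Oil. In the NTS it read 12.10, 11.69 and 11.72 with EB and 12.47, 12.51 and 12.97 with Oil. Rgs5 was 4.07-fold under the other Oil arrays in ARC Oil 2 and 8.81-fold in PVN Oil 2, and 4.99-fold and 5.48-fold under the EB arrays. In the NTS each Oil array lay above each EB array. Vtn, the matrix protein vitronectin, read 10.17 in ARC Oil 2 and 8.49 in PVN Oil 2 against 9.86 to 11.99 elsewhere. Pdgfrb, the receptor through which pericytes are recruited, read 9.06 and 7.99 against 9.16 to 10.17. For Vtn, PVN EB 1 (9.86) was lower than ARC Oil 2, and for Pdgfrb PVN EB 1 (9.16) and ARC Oil 3 (9.24) came close to it. Abcc9, the sulfonylurea receptor subunit of a potassium channel, and Atp13a5, a P-type ATPase, are given with the EB vs Oil comparison. Anpep, an aminopeptidase below background in all 18 arrays, read 6.09 in ARC Oil 2, above the 5.78 to 6.06 of the EB arrays there, and 5.10 in PVN Oil 2. Cspg4, the NG2 proteoglycan, varied least of all 32 genes, by 0.69. It read 7.37, 7.86 and 7.70 in ARC EB 1 to 3 and 7.60, 7.24 and 7.21 in ARC Oil 1 to 3. It read 7.47, 7.90 and 7.70 in PVN EB 1 to 3, 7.69, 7.58 and 7.35 in PVN Oil 1 to 3, and 7.25 to 7.63 in the NTS. It lay within 1 unit of background in every array and showed no low array.

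The smooth muscle genes varied in a way of their own. Tagln, the actin-binding transgelin, had the widest range of the 32 genes, 4.90. It read 11.82, 11.26 and 11.93 in ARC EB 1 to 3 and 12.57, 10.96 and 10.68 in ARC Oil 1 to 3. In the PVN it read 8.70, 9.34 and 11.26 with EB and 11.59, 7.67 and 11.32 with Oil, and in the NTS 11.27, 9.59 and 10.66 with EB and 10.54, 10.61 and 9.88 with Oil. Tagln was therefore low in 3 PVN arrays, not 1, and in the ARC its minimum was in Oil 3. The mean signal of 15 perivascular fibroblast and meningeal genes was also lowest in those 3 PVN arrays, 7.62 in EB 1, 7.78 in EB 2 and 7.46 in Oil 2 against 8.49 to 9.34 in the other 3; its part in the Tagln values was not tested. Myh11, the smooth muscle myosin heavy chain, read 7.90 in ARC Oil 2 and 7.43 in PVN Oil 2, with NTS EB 2 (7.79) and NTS Oil 3 (7.80) between them. Acta2, smooth muscle actin, read 9.61 and 9.31, with NTS Oil 1 (9.48) between them.

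Near-absent was the name given to a signal below the background of its array in a gene whose median over the other 17 arrays was at least 2 units above the mean background. Of the 32 genes, 15 were bright enough for this, and 4 signals met it: Abcb1a in ARC Oil 2 and in PVN Oil 2, and Adgrf5 and Cdh5 in PVN Oil 2. Their medians over the other 17 arrays were 9.51, 10.27 and 9.75. Over all probe sets bright enough, between 0.0117% and 0.646% were near-absent in an array, with 0.118% in ARC Oil 2 and 0.094% in PVN Oil 2. Just outside the limit lay Adgrf5 in ARC Oil 2 at 7.64 and Tek in the same array at 7.61, both above its background of 7.58. Other genes remained well measured there, such as Slc2a1, Cldn5 and Rgs5, which lay above background in both arrays.

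The shortfalls matched gene by gene. Across the 32 genes the difference from the other arrays of the region in ARC Oil 2 and in PVN Oil 2 had a Pearson r of 0.775 and a Spearman rho of 0.834, against 0.291 and 0.25 across all 23188 probe sets; genes are not independent replicates and the list was chosen for such values. Only 56 probe sets (0.242%) lay at least 1 unit low in both arrays, and 17 of the 32 genes (53.1%) were among them: Flt1, Kdr, Tek, Eng, Adgrf5, Cd93, Cldn5, Cdh5, Pecam1, Esam, Vwf, Abcb1a, Rgs5, Abcc9, Atp13a5, Vtn and Myh11. At least 1 unit high in both were 16 probe sets.

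**Figure D2:**
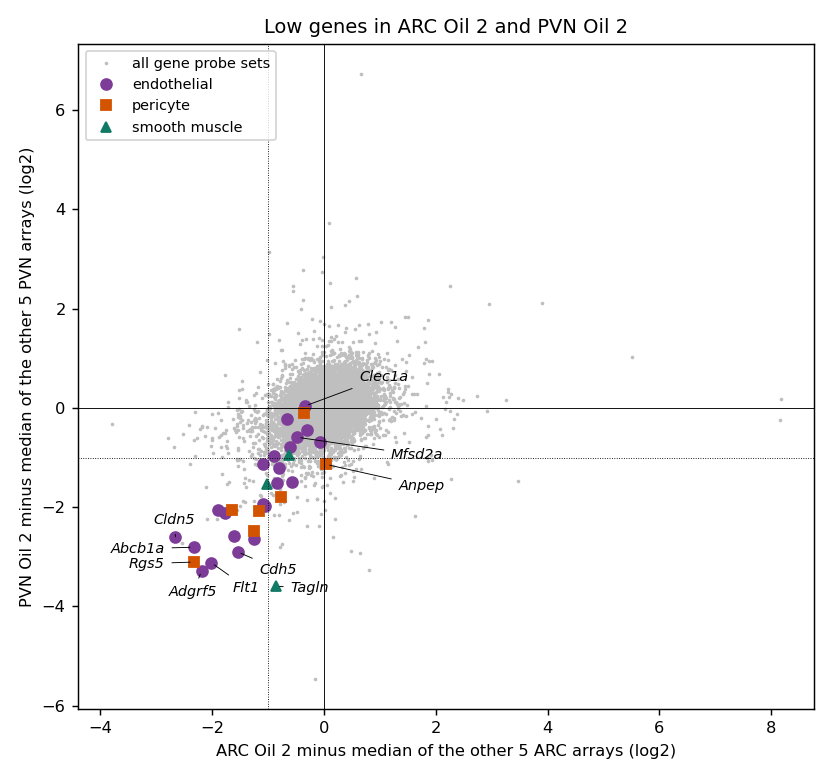
Each point is 1 probe set; the x axis gives the log2 difference of ARC Oil 2 from the median of the other 5 ARC arrays, the y axis that of PVN Oil 2 from the other 5 PVN arrays, and dotted lines mark -1. Endothelial (purple circles), pericyte (orange squares) and smooth muscle genes (green triangles) lie toward the lower left, led by Cldn5, Abcb1a, Rgs5, Adgrf5 and Flt1, while Clec1a stays at -0.34 and 0.04.

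Some vascular genes outside the 35 were low in both arrays too. Adgrl4, an adhesion receptor of endothelium, lay at -2.53 and -2.72, lower in its smaller gap than every gene of the list but Cldn5. Of 55 further endothelial and 22 further mural genes measured, many of them also expressed by other brain cells, 5 of 76 different genes (6.58%) were at least 1 unit low in both arrays: Slc22a8, an organic anion carrier of the barrier (-2.09 and -2.24), Icam2 (-1.34 and -1.45), Podxl (-1.13 and -1.77), Mcam (-1.25 and -1.01) and Myl9 (-1.14 and -1.03). The median difference of the further endothelial list was -0.28 in ARC Oil 2 and -0.27 in PVN Oil 2. That of the 8 receptors was -1.42 and -2.35, of the 6 junction genes -1.32 and -2.0, of the 5 transporters -0.65 and -0.79, of the 7 pericyte genes -1.15 and -2.05, and of the 3 smooth muscle genes -0.85 and -1.52. Over all probe sets the median was 0.02 and 0.01.

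Single genes of other cells were also low in both arrays, among them Mbp, the myelin basic protein (-2.39 and -1.13), Gjb1, a connexin of oligodendrocytes (-2.10 and -1.59), and the neuropeptide gene Cck (-1.41 and -1.41). Whole lists of other cells gave mean signals within the range of the other arrays in some cases and outside it in others. The choroid plexus and PVN neuron lists lay within it in both low arrays. The 12 neuron genes had a mean signal of 12.72 in ARC Oil 2, within the 12.63 to 12.94 of the other ARC arrays, and of 13.31 in PVN Oil 2, within 12.93 to 13.37. The 10 astrocyte genes had 13.63 and 13.31, just under the 13.64 to 14.07 and 13.32 to 14.05 of the other arrays, and the 10 microglia genes 9.42, above 8.63 to 9.15, and 9.08, within 8.44 to 9.14. The 11 oligodendrocyte genes were low in ARC Oil 2, 11.37, and in ARC EB 1, 11.08, where the endothelial mean was 8.93, and in PVN Oil 2 they were within range at 13.08. In PVN Oil 2 the blood list, 8.26, lay under the other PVN arrays, 8.39 to 9.24. So did the perivascular fibroblast and meningeal list, 7.46 under 7.62 to 9.34. In ARC Oil 2 both lay within range, 9.68 and 10.07. The ARC neuron and housekeeping lists were highest in ARC Oil 2 and lowest in PVN Oil 2 within their region. The midbrain dopamine and mammillary list was lowest in PVN Oil 2 and within range in ARC Oil 2. The part of tissue composition in the vascular values was not tested.

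**Figure D3:**
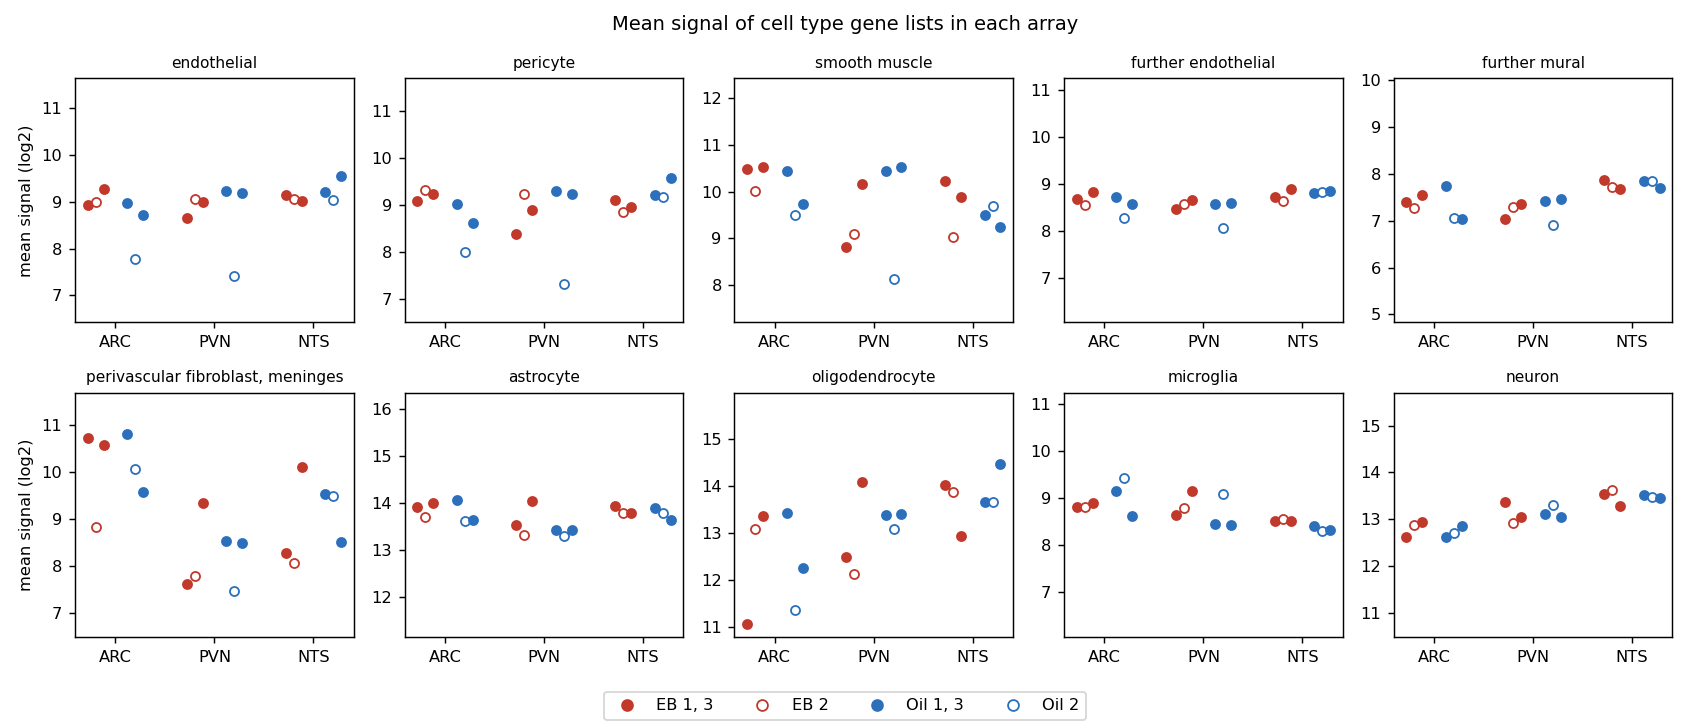
Each panel shows the mean log2 signal of 1 cell type gene list in each of the 18 arrays, by region, EB in red and Oil in blue, with label number 2 as open circles; the y axis spans the same width in all panels. The open blue circle of the ARC and of the PVN lies under the other arrays for endothelial genes (7.78 and 7.41) and pericyte genes (8.01 and 7.32), and among the others for neuron genes.

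EB vs Oil was compared in each region by limma. A gene was called where the p before adjustment was at most 0.05 and the means differed at least 2-fold. In the ARC, 2 of 32 genes were called, both higher with EB. The calls took in 0.479% of all probe sets (0.0992% with higher and 0.38% with lower EB means). Both calls use ARC Oil 2, one of the arrays for which the genes were listed. With no limit on the fold, 9 of 32 genes had such a p, where 5.66% of all probe sets did. Atp13a5 read 7.90, 8.17 and 8.28 with EB and 7.66, 6.26 and 7.09 with Oil. The means differed by 1.11 (SE 0.33), and 2 of its 3 Oil values were below background. Abcc9 read 8.88, 10.25 and 9.04 with EB and 8.54, 7.73 and 8.43 with Oil, and the means differed by 1.16 (SE 0.39). In both genes all 3 EB arrays lay above all 3 Oil arrays, with ARC Oil 2 the lowest. Without it the differences were 0.74 and 0.90, and neither was called. Atp13a5 and Cd93 stand in a gene list that the study drew from these ARC arrays, so that list adds no independent evidence of direction.

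Of the 32 genes, 30 had a higher mean with EB in the ARC, with a median difference of 0.64 over the 22 endothelial and 0.55 over the 10 mural genes, and EB arrays lay above Oil arrays without overlap in 10, where 5.77% of all probe sets did: Adgrf5, Cd93, Clec1a, Pecam1, Emcn, Sox17, Abcc9, Atp13a5, Vtn and Acta2. In 0 genes did the EB arrays lie below the Oil arrays (5.43% of all probe sets). Acta2, for example, read 10.60, 10.24 and 10.47 with EB and 9.80, 9.61 and 9.99 with Oil. Without ARC Oil 2, 27 of 32 were still higher with EB, but the medians were 0.22 and 0.28, and the only gene called (of 0.522% of all probe sets) was Abcg2, lower with EB by 1.01 (SE 0.32). Without ARC Oil 1, whose regional markers went against its label, 11 genes were called, all higher with EB (0.841% of all probe sets), and without ARC Oil 3, 5 were (0.535% of all). In each of these runs ARC Oil 2, for which the genes were listed, was 1 of only 2 Oil arrays. The 2 counts are not independent of that choice, and nothing is read from them on EB.

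In the PVN, 0 of 32 genes were called by limma, where 0.332% of all probe sets were (0.151% higher and 0.181% lower with EB), and 1 had an unadjusted p of 0.05 or less, as 6.39% of all probe sets did. The mean was higher with EB for 23 of 32, with a median of 0.30 over endothelial and 0.12 over mural genes. Leaving out PVN Oil 2 turned the direction: 29 of 32 were then lower with EB, the medians were -0.35 and -0.64, and Tagln (-1.69, SE 0.69) and Myh11 (-1.11, SE 0.31) were called, where 0.91% of all probe sets were. The 2 Oil arrays left in that fit are PVN Oil 1 and Oil 3. Both went against their label in regional markers, and without them PVN Oil 2 would stand alone for Oil. Clec1a was the only gene whose PVN EB and Oil arrays did not overlap, 6.87, 7.22 and 6.87 with EB and 7.28, 7.26 and 7.60 with Oil, and 5 of these 6 values were below background. Of all probe sets, 6.39% had their EB arrays below and 5.96% above the Oil arrays. Abcc9 read 8.75, 9.16 and 9.23 with EB and 10.04, 7.16 and 9.68 with Oil in the PVN, and Atp13a5 7.33, 7.97 and 7.84 with EB and 7.95, 5.90 and 8.20 with Oil. In both, PVN Oil 2 was lowest while Oil 3 lay above every EB array, as did Oil 1 for Abcc9.

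In the NTS, which holds neither low array, 0 of 32 genes were called by limma, where 0.0776% of all probe sets were (0.0474% higher and 0.0302% lower with EB), and 7 had an unadjusted p of 0.05 or less, as 4.65% of all probe sets did. The mean was lower with EB for 23 of 32, with medians of -0.19 and -0.16, and EB arrays lay below Oil arrays without overlap in 10 genes, where 5.65% of all probe sets did: Flt1, Tek, Clec1a, Cdh5, Slc2a1, Rgs5, Abcc9, Atp13a5, Anpep and Vtn. In 0 genes did they lie above (5.53% of all probe sets). The largest of these differences was that of Rgs5, -0.81 (SE 0.19). Tek read 10.05, 10.02 and 10.09 with EB and 10.40, 10.30 and 10.38 with Oil. Abcc9 read 9.53, 8.99 and 8.76 with EB and 9.68, 9.57 and 10.01 with Oil, and Atp13a5 8.41, 8.15 and 8.18 with EB and 8.47, 8.43 and 9.01 with Oil. All 3 genes were separated by treatment here, but by less than a 2-fold change. Without NTS Oil 3, the mean was lower with EB for 20 of 32.

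**Figure D4:**
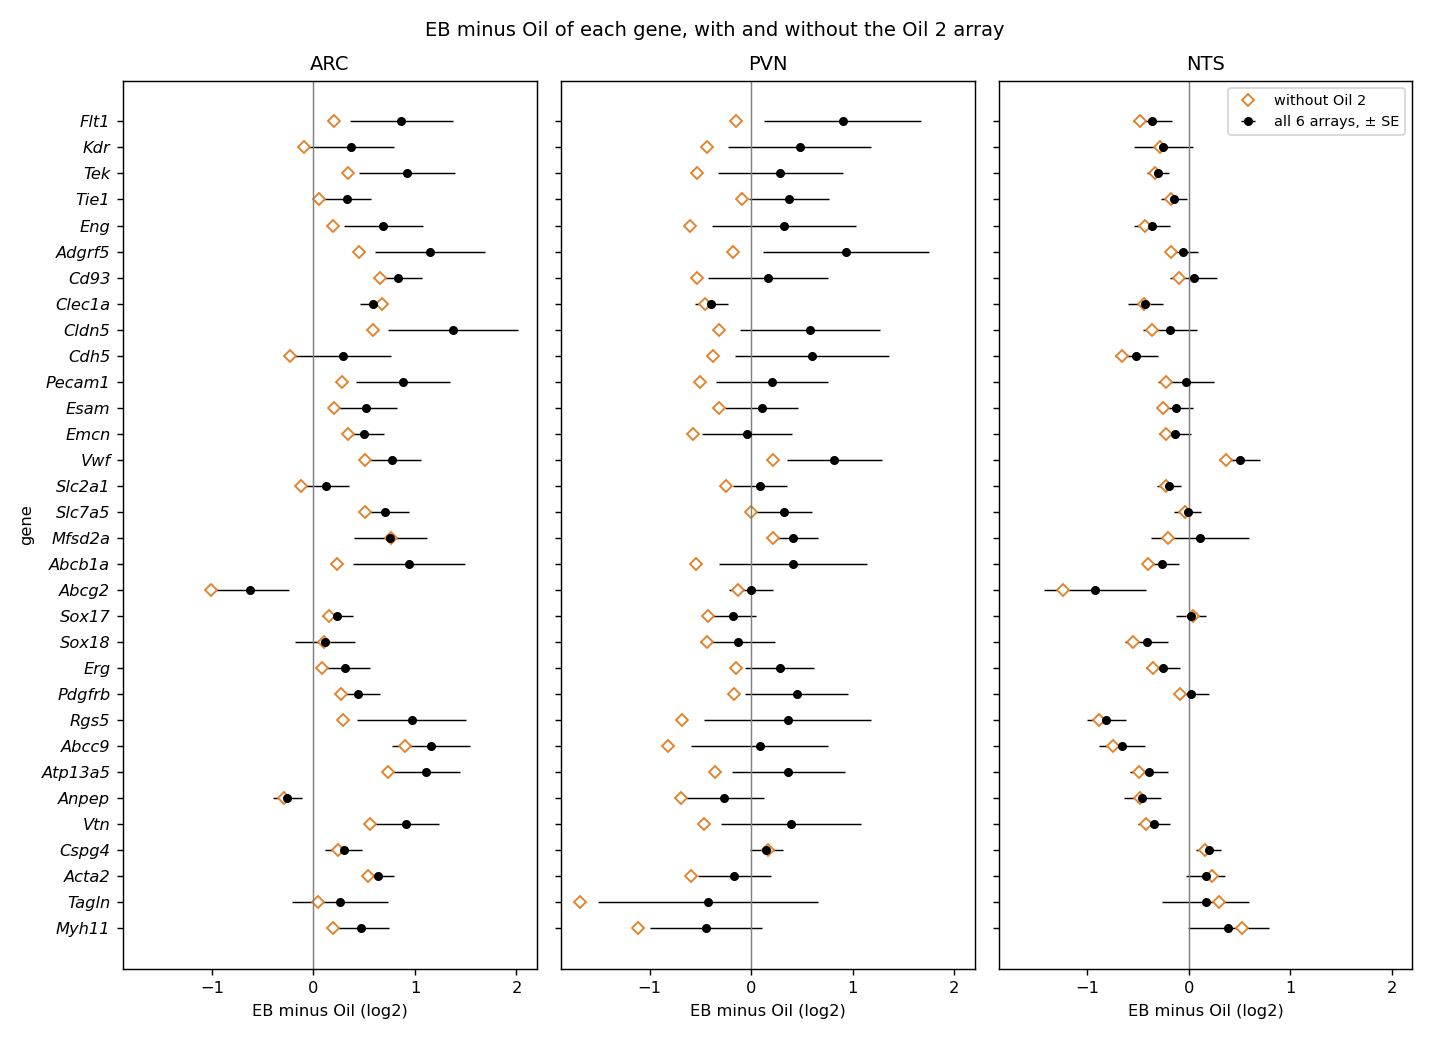
For each of the 32 genes, the x axis gives EB minus Oil (log2) in the ARC, PVN and NTS; black points with bars are the estimate from all 6 arrays ± SE, and open orange diamonds the estimate without the Oil 2 array. In the PVN the diamonds lie at or left of 0 for 29 of 32 genes while 23 of the black points lie to the right. In the ARC most diamonds move toward 0 or past it, but those of Abcg2, Clec1a, Mfsd2a and Anpep move away.

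The difference of the EB effect between regions was taken from 1 limma fit of all 18 arrays. At an adjusted p under 0.05, 0 of 23188 probe sets differed in any pair of regions, and an unadjusted p under 0.05 was reached by 3 of 32 genes for ARC against NTS (6.1% of all probe sets), 1 for PVN against ARC (5.02% of all) and 0 for PVN against NTS (3.88% of all).

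The regions themselves were compared in the same fit, averaged over EB and Oil, with a call at an adjusted p under 0.05 and a fold change of 2 or more; it is not stated whether the arrays of the 3 regions were normalized together. In NTS punches Mfsd2a was higher than in both hypothalamic regions. Its mean ± SD was 10.76 ± 0.68 in the NTS, 9.52 ± 0.66 in the ARC and 9.70 ± 0.40 in the PVN (n = 6 each), a limma difference of -1.24 (SE 0.31, adjusted p = 0.00424) for ARC minus NTS and -1.06 (SE 0.31, adjusted p = 0.0125) for PVN minus NTS. It read 10.96, 11.21 and 10.29 in NTS EB 1 to 3 and 10.23, 10.07 and 11.82 in NTS Oil 1 to 3, against 8.64 to 10.41 in the ARC and 9.10 to 10.36 in the PVN. Without NTS Oil 3 the differences were -0.96 and -0.79, under 2-fold, with adjusted p of 0.0076 and 0.026 by limma. Mfsd2a was the only one of 32 genes called between ARC and NTS, where 7.13% of all probe sets were (4.15% higher and 2.98% lower in the ARC). Between PVN and NTS, Clec1a was called as well, where 5.55% of all probe sets were (2.6% higher and 2.95% lower in the PVN). Its means were 7.18 and 6.15 (limma adjusted p = 6.91e-06), below background in 5 of 6 PVN and 6 of 6 NTS arrays, so no fold change is given. Between PVN and ARC, 0 of 32 were called by limma, where 2.23% of all probe sets were (0.349% higher and 1.88% lower in the PVN), and 3 had an unadjusted p under 0.05, as 34.8% of all probe sets did. That p was reached by 6 of 32 genes between ARC and NTS (51.5% of all probe sets) and by 7 between PVN and NTS (47% of all).

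**Figure D5:**
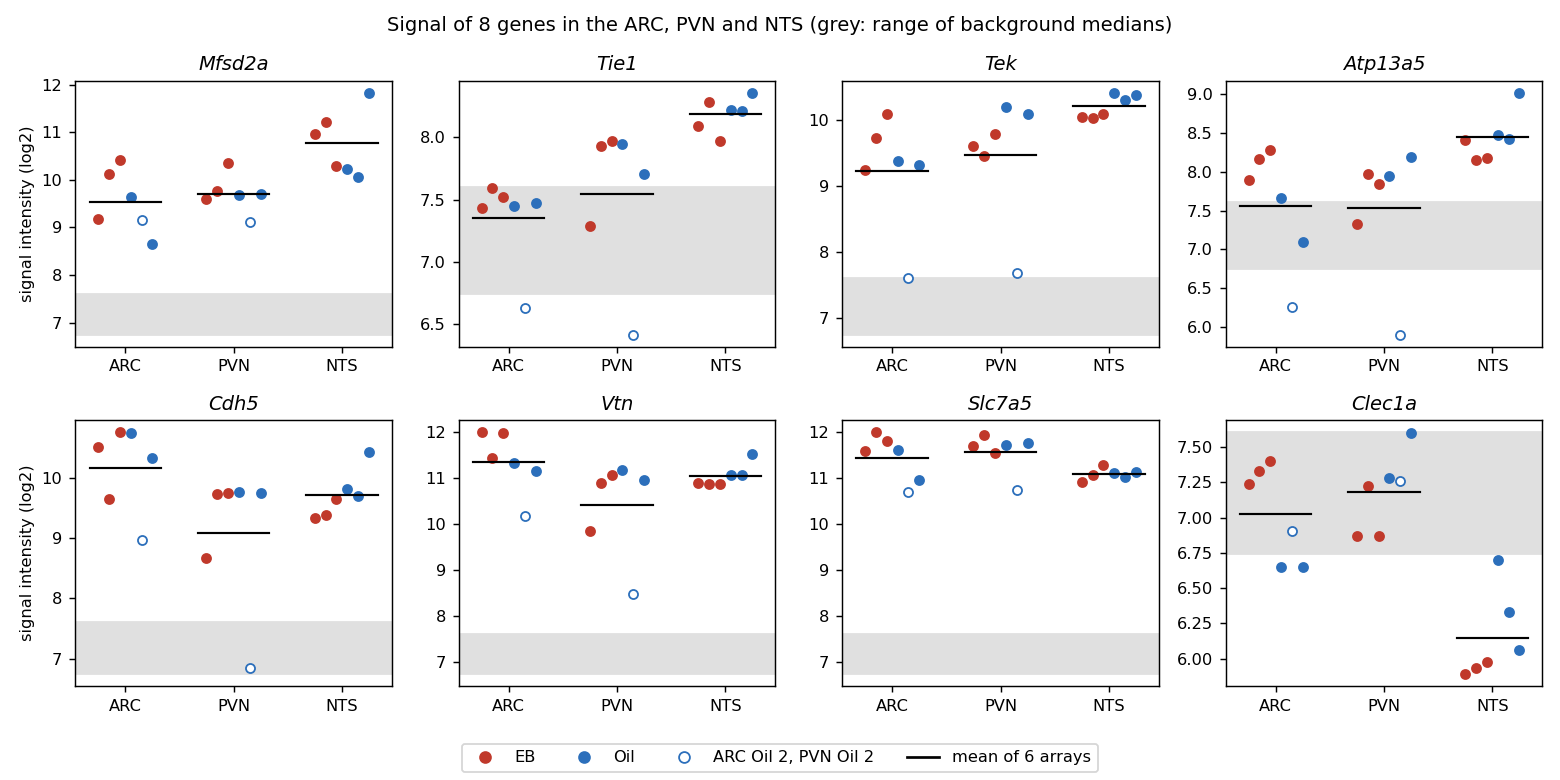
Each panel shows the log2 signal of 1 gene in the 6 arrays of each region, EB in red and Oil in blue, with ARC Oil 2 and PVN Oil 2 as open circles, a line at the mean of 6 arrays and the range of background medians in grey. Mfsd2a, Tie1, Tek and Atp13a5 have their highest mean in the NTS, and Clec1a lies within or under the grey band in nearly every array.

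At any fold change, the members that passed the adjusted p between ARC and NTS were Tek, Tie1, Mfsd2a and Atp13a5, lower in the ARC (18% of all probe sets), and Clec1a, higher (26.3% of all). Tie1 was lower by a difference of -0.84 (SE 0.22, limma adjusted p = 0.00712), with 4 of 6 ARC values below background, so the size of this difference is uncertain, and Tek by -0.98 (SE 0.38, limma adjusted p = 0.0459). With the 2 low arrays left out, 8 genes were lower in the ARC (16% of all probe sets), with Flt1, Eng, Adgrf5 and Abcb1a added. Higher there were 4 (24.3% of all), with Cdh5, Slc7a5 and Tagln added. Tek was then 9.55 ± 0.36 in 5 ARC arrays against 10.21 ± 0.17 in 6 NTS arrays. These 2 arrays were left out because the genes read low there, which also narrows the spread of these genes. Genes that pass only without them, here and between PVN and ARC, are therefore a description. Between PVN and NTS, Tie1, Mfsd2a and Atp13a5 were lower in the PVN (18.5% of all probe sets) and Clec1a and Slc7a5 higher (19% of all). The same 3 and 2 genes passed without the 2 low arrays, with 16.6% and 17.3% of all probe sets. Between PVN and ARC, 0 passed with all arrays, where 7.35% of all probe sets were higher and 14.1% lower in the PVN. Cdh5 and Vtn passed without the 2 low arrays (5.21% higher and 10% lower of all), lower in the PVN by differences of -0.84 (SE 0.25) and -0.68 (SE 0.21). The comparisons with the NTS share its 6 arrays.

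Of the pathway around these genes, 34 vessel growth and mural recruitment ligands and receptors outside the list were measured. In EB vs Oil 0 of 34 were called by limma in the ARC, PVN or NTS, where 0.479%, 0.332% and 0.0776% of all probe sets were. Higher with EB were 22, 17 and 16 of 34, with medians of 0.11, 0.01 and -0.03. Between regions 1 of 34 was higher and 1 lower in the ARC than in the NTS (4.15% and 2.98% of all probe sets). In the PVN 1 was lower than in the NTS (2.95% of all). Nothing is read from these counts. Efnb2, an ephrin of arteries and neurons, was higher in the ARC than in the NTS by 1.82 (SE 0.30, limma adjusted p = 0.000193), and Pgf, a ligand of Flt1, was lower in the PVN than in the NTS by a difference of -1.65 (SE 0.31, limma adjusted p = 0.000725).

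With ARC Oil 2 and PVN Oil 2 set aside, the endothelial genes spanned less over the other 16 arrays, but few were flat. The median range of the 22 genes was 2.70 over 18 arrays and 1.23 over 16, and 18 of 22 still spanned more than 1 unit. The range over arrays fell from 3.67 to 1.03 for Flt1, from 3.76 to 1.08 for Adgrf5, from 3.30 to 1.46 for Abcb1a and from 2.80 to 1.16 for Tek, and that of Slc2a1 from 1.24 to 0.58. It was 2.08 for Cdh5, 1.71 for Clec1a, 1.64 for Cldn5 and 1.35 for Pecam1 over the 16 arrays, and stayed wide for Tagln (3.87), Mfsd2a (3.18) and Abcg2 (3.06), whose minima lay elsewhere or which varied in other arrays too. The Pearson r of a gene with the mean of the other endothelial genes, a description over 16 arrays that share regions and rats, was 0.86 for Eng, 0.84 for Cldn5 and 0.88 for the pericyte gene Atp13a5, but 0.19 for Kdr, 0.21 for Cdh5 and -0.15 for Slc7a5. Over all 18 arrays the same values were 0.97, 0.96, 0.95, 0.83, 0.73 and 0.46.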

How the data were processed

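Rat Clariom S Pico arrays measured RNA from 18 punches. Scanner files were corrected for background, normalized and put on the log2 scale by the array service (SST-RMA), and the authors compared groups in the Transcriptome Analysis Console. The values used are the log2 signal intensities that the authors deposited, without further normalization or filter. Of 24834 probe sets, the 1646 controls were left out, apart from the 23 that gave each array's background median. Arrays have no read depth, and 3 samples per group limit the precision.

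With limma 3.58.1 in R 4.3.3 were computed EB minus Oil per region (prior degrees of freedom 2.94 to 3.59) and, from 1 fit of 18 arrays taken as independent, region differences and interactions, adjusted by Benjamini-Hochberg over 23188 probe sets. The steps were tested on simulated data. Same-numbered arrays of 1 treatment in different regions, which could share a rat, correlated at -0.11 to 0.42 in their deviations. Same-numbered EB and Oil arrays of a region, which could not, correlated at -0.46 to 0.13. Array titles run in the order ARC, PVN, NTS for each treatment and number, but no label states a shared rat. Numbers were therefore not used as pairs in the main fit. Alternatives were other normalizations, filters, weights, thresholds, a replicate block and left-out arrays. Genes, lists and motifs were chosen with earlier results of these data known, and the ETS core and the runs without both low arrays were added later. Named genes are the 32 measured, array by array where near-absent, called or of extreme range, and others by counts. Further genes given array by array, such as Flt1, Cldn5, Mfsd2a and Acta2, were added after their values were seen. Figures used Python 3.11.15 with matplotlib 3.10.9.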

Additional observations from a re-analysis of the deposited data

Results flagged for a closer look

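Each of these 4 genes was picked out because every EB array lay above every Oil array in the ARC and below every Oil array in another region. The share of all probe sets that meet this rule was not computed, so nothing is read from the number of genes. The gap between the EB effects of the ARC and the PVN was 0.98 for Clec1a, and in the NTS its EB arrays were below its Oil arrays too. Clec1a was below background in all ARC and NTS arrays and in 5 of 6 PVN arrays, so the size of its gap has no firm reading. The gap between the ARC and the NTS was 1.82 for Abcc9, 1.5 for Atp13a5 and 1.26 for Vtn. ARC Oil 2 was the lowest ARC array for these 3 genes. By limma's test of the difference over all probe sets, the adjusted p was 0.815 for Clec1a (unadjusted 0.000451), 0.797 for Abcc9 (unadjusted 0.0344), 0.797 for Atp13a5 (unadjusted 0.0347) and 0.824 for Vtn (unadjusted 0.115), so none passed.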

How the results depend on the processing

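Of the alternatives run, 158 left a count within 1.5 times or a median within the spread of replicates, and 41 did not. Some medians within that spread changed sign. In the PVN the endothelial median of 0.30 became -0.35 without PVN Oil 2 and -0.22 with the median of 3 samples, and the mural median of 0.12 became -0.64, -0.45 and, without PVN EB 2, -0.01. In the ARC and NTS 0 medians changed sign. In EB vs Oil, the ARC count of 2 became 1 in 1 fit of all 18 arrays, 4 with array weights and 8 at a fold change of 1.5. It became 9 with no fold limit (5.66% of all probe sets). Without ARC Oil 1, the array whose regional markers go against its label, it became 11 (0.841% of all). ARC Oil 2 was then 1 of 2 Oil arrays left. The ARC count was 1 to 11 when single arrays were left out. The PVN count of 0 became 1 with no fold limit (6.39% of all probe sets), and 0 to 2 without single arrays. Without PVN Oil 1 and Oil 3, Oil rested on PVN Oil 2 alone, an array for which the genes were listed, with the spread taken from the EB arrays. The 19 genes then called (0.725% of all probe sets) and the medians of 1.44 and 1.74 follow from that choice and say nothing on EB. The NTS count of 0 became 2 at a fold change of 1.5 and 7 with no fold limit (4.65% of all probe sets). Between PVN and ARC the count of 0 became 2 with the replicate block, 3 without the 4 arrays whose regional markers go against their labels, and 0 to 2 without single arrays. Between ARC and NTS the count of 1 became 3 with quantile normalization, 4 with arrays centred on their median, 4 with arrays centred on housekeeping genes, 2 with the replicate block, 4 without the 4 arrays, 2 without ARC Oil 2 and PVN Oil 2, and 0 to 4 without single arrays. Between PVN and NTS the count of 2 became 1 with only probe sets above background in 3 or more arrays, 17 without the 4 arrays, where PVN Oil 2 again stood alone for PVN Oil, as between PVN and ARC, 1 without both low arrays and 0 to 3 without single arrays. Without NTS Oil 3 both counts against the NTS fell to 0. The count between ARC and NTS became 4 without ARC Oil 1, 3 without PVN Oil 2 and 2 without ARC EB 3 or ARC Oil 3. That between PVN and NTS became 1 without PVN EB 1, PVN EB 2, PVN Oil 2 or NTS EB 2, and that between PVN and ARC 2 without PVN Oil 1 and 1 without PVN EB 3. In EB vs Oil, the ARC count was 1 without ARC Oil 2 and 5 without ARC Oil 3, and the PVN count 2 without PVN Oil 2 and 1 without PVN Oil 3. The count of 4 near-absent signals became 6 at a gap of 1 unit above background and 0 at a gap of 3 units. It became 6 with quantile normalization. Another rule, a signal 3 log2 units under the median of the other 17 arrays, gave 2 signals. These were Adgrf5 and Tagln in PVN Oil 2, and Tagln was not among the 4. The cause of these changes was not tested. For most alternatives the share of all probe sets called is not given here. A changed count is therefore not read as a result about these genes. The replicate block changed no other call count. Centring moved the median of all probe sets from -0.05 to 0.11 for PVN minus ARC and from 0.06 to -0.06 for ARC minus NTS. The mean over probe sets of a symbol was not run, since each gene has 1. Low signals near background limit Clec1a, Sox18, Anpep, Erg and Vwf most.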

Other observations

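Outside the list, the genes whose signal over the 18 arrays was most like the mean of the endothelial genes were Adgrl4, an adhesion receptor of endothelium (Pearson r = 0.970), Cd34 (0.949), Itm2a (0.942), Srgn (0.925), Slc40a1 (0.918), Akr1c15 (0.918), Slc19a3 (0.908), Acvrl1 (0.905), Cyyr1 (0.900) and Degs2 (0.898). Without ARC Oil 2 and PVN Oil 2 the values were lower, 0.86 for Adgrl4 and 0.71 for Cd34. For the mean of the mural genes they were Srgn (0.91), Egflam (0.84), Jag1 (0.84), Acvrl1 (0.84), Cald1 (0.84), Map3k7cl (0.83), Tnfsf10 (0.83), Schip1 (0.83), Adgrl4 (0.83) and Ltbp1 (0.82). These r are descriptions over arrays that share regions and rats.

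Among the 51 named probe sets at least 1 unit low in both ARC Oil 2 and PVN Oil 2, the one with the next largest joint shortfall after Cldn5, Adgrl4, had 0.14 in NTS Oil 2. Slc19a3, a thiamine carrier, had -1.80 and -2.08, Cd34, a surface sialomucin of endothelium, -1.45 and -1.88, and Cyyr1 -1.55 and -2.06.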
